A study of Mus musculus with 4 samples.

Results

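A set of 10 transcription factors that direct the formation of blood and blood vessels was followed in endothelial cells made from mouse induced pluripotent stem cells (iPSCs). They were the ETS factors Etv2, Erg, Fli1 and Ets1, the SCL complex factors Tal1, Lyl1, Lmo2 and Gata2, and the SoxF factors Sox7 and Sox18. The members were the probe sets whose platform gene symbol is one of these names, which gave 17 of 45037 probe sets and 10 of 18193 genes, and all 10 factors were found. Each of Erg, Fli1, Gata2 and Sox7 had 2 probe sets, Ets1 had 4, and the other 5 factors had 1 each.

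The study compared 2 mice with diet-induced obesity (DIO) with 2 healthy control mice, all aged 24 weeks, with 1 array for each mouse. The tissue reprogrammed, the strain, sex and diet are not given in the labels, nor is the number of iPSC lines behind an array or any sorting step. All 4 cultures shared the same endothelial cell medium and were trypsinized before total RNA was taken, and biotin-labelled RNA was hybridised to Affymetrix mouse arrays. Arrays are called DIO 1, DIO 2, control 1 and control 2 after the mouse number in the titles. Levels are the authors' log2 values, so a difference of 1 is a doubling of signal, and differences are the DIO mean minus the control mean.

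ETS, GATA and basic helix-loop-helix factors act together on the enhancers of endothelial and blood genes. Etv2 is a transient ETS factor that starts the program in mesoderm, after which Fli1, Erg and Ets1 maintain it, each binding the same short core. Tal1 and its close relative Lyl1 are basic helix-loop-helix proteins that bind E-boxes with an E-protein partner, while Lmo2 is a bridging protein without DNA binding of its own that joins them to GATA factors such as Gata2. Sox7, Sox18 and their relative Sox17 form the SoxF group, which acts in early endothelial, arterial and lymphatic development, and Sox7 and Sox17 are also made in extraembryonic endoderm.

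Because these factors bind one another's regulatory DNA, the windows around the start sites of the brightest SCL complex member, of the factor that opens the program and of Tal1 are shown with the short cores that the 3 families bind. The sequences run from 250 bases before to 50 bases after the start and are RefSeq's for GRCm38.p6, written 5′ to 3′ on the strand of the gene. Capitals mark the letters of 4 short motifs, searched on both strands. The motif GGAA is the core that ETS factors bind. GATA factors bind the core GATAA. The E-box searched for basic helix-loop-helix pairs was CAGNTG. For Sox factors the core searched was ACAAT. No match overlapped a match of another motif in the windows shown.
Etv2, chr7:30635803-30636102, minus strand: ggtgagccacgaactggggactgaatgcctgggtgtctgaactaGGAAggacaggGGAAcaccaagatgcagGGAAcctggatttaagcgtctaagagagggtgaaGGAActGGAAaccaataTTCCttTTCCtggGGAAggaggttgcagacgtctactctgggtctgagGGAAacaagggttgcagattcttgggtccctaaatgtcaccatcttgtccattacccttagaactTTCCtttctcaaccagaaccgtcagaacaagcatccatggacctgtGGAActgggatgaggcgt
Gata2, first start, chr6:88193641-88193940, plus strand: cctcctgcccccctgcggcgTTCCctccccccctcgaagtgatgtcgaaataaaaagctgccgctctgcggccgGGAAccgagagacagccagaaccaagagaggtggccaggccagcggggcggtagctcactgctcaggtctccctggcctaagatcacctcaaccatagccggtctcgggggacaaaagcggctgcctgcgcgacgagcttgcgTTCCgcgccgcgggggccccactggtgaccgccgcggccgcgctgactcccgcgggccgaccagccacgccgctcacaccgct
Gata2, second start, chr6:88198414-88198713, plus strand: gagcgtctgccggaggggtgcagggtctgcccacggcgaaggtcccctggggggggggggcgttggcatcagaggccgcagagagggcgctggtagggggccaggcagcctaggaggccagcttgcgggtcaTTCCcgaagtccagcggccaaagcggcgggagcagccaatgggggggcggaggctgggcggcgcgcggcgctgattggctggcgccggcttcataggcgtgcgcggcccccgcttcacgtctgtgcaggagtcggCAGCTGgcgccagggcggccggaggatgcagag
Tal1, first start, chr4:115056176-115056475, plus strand: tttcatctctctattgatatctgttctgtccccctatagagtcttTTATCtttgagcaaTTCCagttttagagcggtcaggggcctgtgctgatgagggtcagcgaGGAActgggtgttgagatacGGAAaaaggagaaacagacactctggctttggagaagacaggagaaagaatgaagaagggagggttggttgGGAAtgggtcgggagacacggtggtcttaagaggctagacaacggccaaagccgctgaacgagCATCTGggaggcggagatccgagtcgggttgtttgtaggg
The Etv2 window held 11 GGAA matches, a number reached by 0.253% of 32851 mouse windows, whose median was 3. The Gata2 windows held 3 and 1, and the first Tal1 window held 4. The core is short, and 96% of all windows held at least 1. The first Tal1 window also held 1 GATAA, found in 25.4% of windows, and 1 E-box, found in 51.4%, and the second Gata2 window held 1 E-box. ACAAT, found in 31% of windows, was in none of these 4. Windows were at hand for 5 of the 10 factors. Those of Lyl1, with 6 GGAA matches, and Erg, with 1, 4 and 2 at its 3 starts, are not printed. Nor is the window of the second Tal1 start, which held 4 GGAA matches and 0 of the GATAA core and the E-box. The Lyl1 window also held 1 E-box and 1 ACAAT. The Erg window with 2 GGAA matches held all 4 motifs, with 1 GATAA, 1 E-box and 2 ACAAT. At least 2 ACAAT were found in 7.98% of windows. The other Erg windows held GGAA matches only. These matches describe the letters only, and no binding was measured.

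Gata2 and Ets1 were bright on all 4 arrays, and the other 8 factors lay below the median of gene means. Brightness depends on the probes as well as on the RNA, so levels of different factors were placed only roughly, by the share of genes that were dimmer. Gata2 was brighter than 89.0% of genes and Ets1 than 63.0%. Lmo2, Sox7 and Etv2 were brighter than 38.6%, 38.1% and 34.6%, and Sox18 than 26.5%. Erg, Lyl1, Fli1 and Tal1 were brighter than 23.8%, 15.98%, 8.92% and 5.90%. No detection calls were used here, so whether the dimmest of these 8 were expressed at all is unknown. RNA per cell and the share of cells carrying it cannot be told apart in such bulk cultures.

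**Figure D1:**
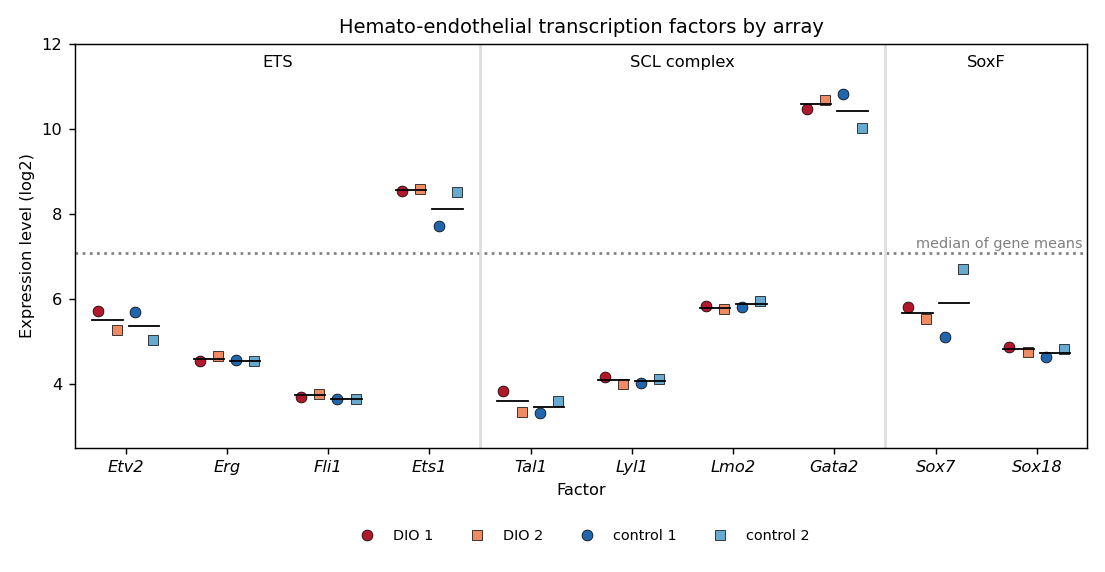
Expression level (log2) of each of the 10 factors by its brightest probe set on the 4 arrays, with black bars for the mean of the 2 DIO and the 2 control arrays and a dotted line at 7.09, the median of gene means. Gata2 and Ets1 lie above the line on every array, and Sox7 spans the widest range, with control 2 at 6.71.

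None of the 10 factors passed the test between DIO and control cells. In limma, 0 of 10 passed an adjusted p of 0.05, where 0% of all genes did, and 0 had an unadjusted p under 0.05, where 6.58% did. The smallest adjusted p among them was 0.778, for Ets1. The DIO mean was higher for 8 of the 10 and the control mean for Lmo2 and Sox7, while 53.3% of all genes had a higher DIO mean. The median difference was 0.08 over the factors and 0.02 over all genes, and after quantile normalization it was 0.03 over both. By the brightest probe set of each factor, both DIO arrays were higher than either control for Fli1 and Ets1, and for none were both lower. Over all genes 38.4% had such non-overlapping groups, 21.4% upward and 17% downward, so the count for the factors was no higher than the background. Of the 17 probe sets of the factors, 3 were higher and 2 lower in DIO without overlap. Of all probe sets 41.3% had non-overlapping groups. Half-widths of the 95% intervals ran from 0.33 to 1.58, so smaller differences could not be told from 0. With 2 arrays a group, the smallest 2-sided p of an exact permutation test is 0.333.

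**Figure D2:**
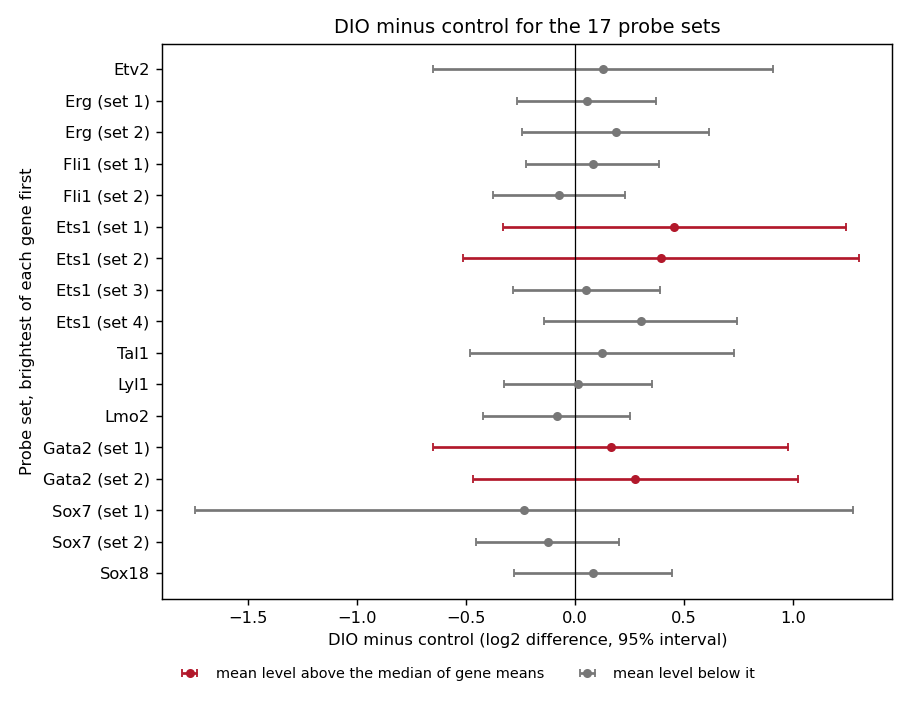
DIO minus control (log2 difference) with its 95% interval for each of the 17 probe sets, from limma fitted over all probe sets, red where the mean level lies above the median of gene means. Every interval covers 0, and the 4 red ones, 2 each of Ets1 and Gata2, all have positive estimates.

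Among the ETS factors, Ets1, which endothelial cells and lymphocytes use to drive vascular and immune genes, had the largest difference of the 10. It was at 8.55 and 8.58 in DIO 1 and DIO 2, against 7.71 and 8.51 in control 1 and control 2. Both DIO arrays were higher than both controls, but control 2 lay just beneath them and control 1 alone was low. The difference was 0.46 ± 0.30 (SE, n = 2 each), a 1.37-fold higher signal with a 95% interval of 0.77 to 2.43 (limma, adjusted p = 0.778). Without control 1 it was 0.05, and without control 2 it was 0.86 (limma, adjusted p = 0.387). The low value in control 1 made up 92.2% of the range over the arrays.

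The 4 Ets1 probe sets did not all show that low array. Here and below, errors of a second or further probe set come from the fit over all probe sets. The brightest set carries a suffix that Affymetrix uses for probes shared by several transcripts. The second bright set had 8.06 and 8.22 in DIO, against 7.28 and 8.22 in control, again lowest in control 1. Its groups overlapped, and it differed by 0.39 ± 0.34. A dim set was at 4.76 and 4.63 in DIO, against 4.23 and 4.56 in control, a difference of 0.30 ± 0.16. The remaining dim set was at 5.19 and 5.03 in DIO, against 5.08 and 5.03 in control, a difference of 0.05 ± 0.13 with no array apart. With the 4 sets averaged, Ets1 differed by 0.30.

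Etv2, the factor that starts the endothelial program in the embryo, was lower in the second mouse of both groups, as were 34.9% of all genes. The mouse numbers name separate animals. It was at 5.72 in DIO 1 and 5.27 in DIO 2, against 5.70 in control 1 and 5.04 in control 2. The second mouse was lower than the first by 0.45 in DIO and by 0.66 in control, while the groups differed by 0.13 ± 0.30. Without DIO 1 the difference was −0.10 and without control 2 it was −0.20.

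The order of the arrays for Etv2, from control 2 through DIO 2 and control 1 up to DIO 1, was shared by 11 of 17 measured pluripotency markers and by 6.25% of all genes, a comparison chosen after the values were seen. Pou5f1, the core factor of pluripotent cells, was at 11.79 and 10.33 in DIO, against 11.16 and 9.96 in control. The pluripotency list averaged 10.44 and 9.31 in DIO and 10.01 and 9.27 in control. In both groups the second mouse was lower for 15 of its 17 members, against 34.9% of all genes. Between groups, 14 of the 17 had a higher DIO mean and 0 passed, with a median of 0.27. The part that leftover pluripotent cells had in the Etv2 values was not tested.

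Fli1 and Erg, which in mature endothelium hold the vascular program on, were dim and nearly level. Fli1 was at 3.71 and 3.76 in DIO, against 3.65 and 3.66 in control, and its range over the arrays, 0.11, was wider than that of only 3.5% of genes. Its groups did not overlap, yet the difference was 0.08 ± 0.12 (limma, adjusted p = 0.891). The other Fli1 probe set pointed the other way, at 3.23 and 3.23 in DIO, against 3.33 and 3.29 in control, a difference of −0.08 ± 0.11, also without overlap. Erg was at 4.54 and 4.66 in DIO, against 4.56 and 4.53 in control, a difference of 0.05 ± 0.13. Its second probe set was at 4.20 and 4.53 in DIO, against 4.15 and 4.21 in control, where DIO 2 alone was high.

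Of the SCL complex members, Gata2, which serves blood stem cells, endothelium and trophoblast, was the brightest of all 10 factors. It was at 10.47 and 10.69 in DIO, against 10.82 and 10.01 in control. The controls were the highest and the lowest of the 4 arrays, and the DIO arrays lay between them. The difference was 0.16 ± 0.31 (limma, adjusted p = 0.919), with an interval of −0.70 to 1.02. Its second probe set was at 9.29 and 9.51 in DIO, against 9.48 and 8.76 in control, with control 2 lowest here too, and differed by 0.28 ± 0.28. Without control 2 the first set's difference was −0.24, and without control 1 it was 0.57.

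The other SCL complex members were dim. Tal1, the basic helix-loop-helix protein at the centre of the complex, was at 3.84 and 3.34 in DIO, against 3.32 and 3.61 in control, a difference of 0.12 ± 0.23. Lyl1, its relative, was at 4.16 and 4.01 in DIO, against 4.03 and 4.11 in control, a difference of 0.01 ± 0.13. For both the highest array was DIO 1, and the groups overlapped. Lmo2, the bridging protein, was at 5.84 and 5.76 in DIO, against 5.81 and 5.96 in control, a difference of −0.09 ± 0.13. Its range of 0.20 over the 4 arrays was wider than that of 13.1% of genes.

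Sox7, the SoxF factor of early endothelial and endoderm cells, varied most of the 10 factors. It was at 5.82 and 5.52 in DIO, against 5.10 and 6.71 in control. The controls were again the lowest and the highest array, 1.61 apart, a range wider than that of 96.3% of genes. The difference between groups was −0.23 ± 0.58 (limma, adjusted p = 0.940), with a wide interval of −1.82 to 1.35. It turned to 0.57 without control 2 (limma, adjusted p = 0.390) and was −1.04 without control 1 (limma, adjusted p = 0.0889). The dim second probe set of Sox7 did not show this pattern. It was lower in DIO without overlap, at 4.48 and 4.61, against 4.70 and 4.64 in control, a difference of −0.13 ± 0.12.

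The related Sox17, which also marks definitive and extraembryonic endoderm, stood at 5.98 and 5.63 in DIO, against 5.86 and 8.22 in control, so that control 2 was again highest. Sox18, which acts in lymphatic and vessel development, did not follow them. It was at 4.88 and 4.75 in DIO, against 4.64 and 4.83 in control, a difference of 0.08 ± 0.14 with overlapping groups.

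Most endoderm markers were, like Sox7, highest in control 2. Of 12 measured markers of primitive and visceral endoderm other than Sox7, 10 were highest in control 2, where 20.9% of all genes were. The same held for 9 of 15 epithelial and epidermal markers, 7 of 16 endothelial genes and 8 of 19 SCL complex partners. It held for only 2 of 17 pluripotency and 2 of 12 trophoblast markers. The endoderm list averaged 7.43 and 7.39 in DIO and 6.82 and 8.91 in control. Lama1, a laminin chain of the basement membrane such endoderm secretes, was at 8.67 and 7.61 in DIO, against 7.11 and 11.57 in control. Among all genes with a settled name, those whose 4 centred values lay nearest to Sox7's were Adamtsl4, Mdfic and Gata4, at Euclidean distances of 0.07, 0.10 and 0.11 log2 units. Gata4, a zinc finger factor of endoderm and heart, was at 5.30 and 5.11 in DIO, against 4.62 and 6.14 in control. With 4 arrays a close match is easy to find, and 203 genes lay within 0.5 units. The part that endoderm-like cells had in the Sox7 values was not tested.

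**Figure D3:**
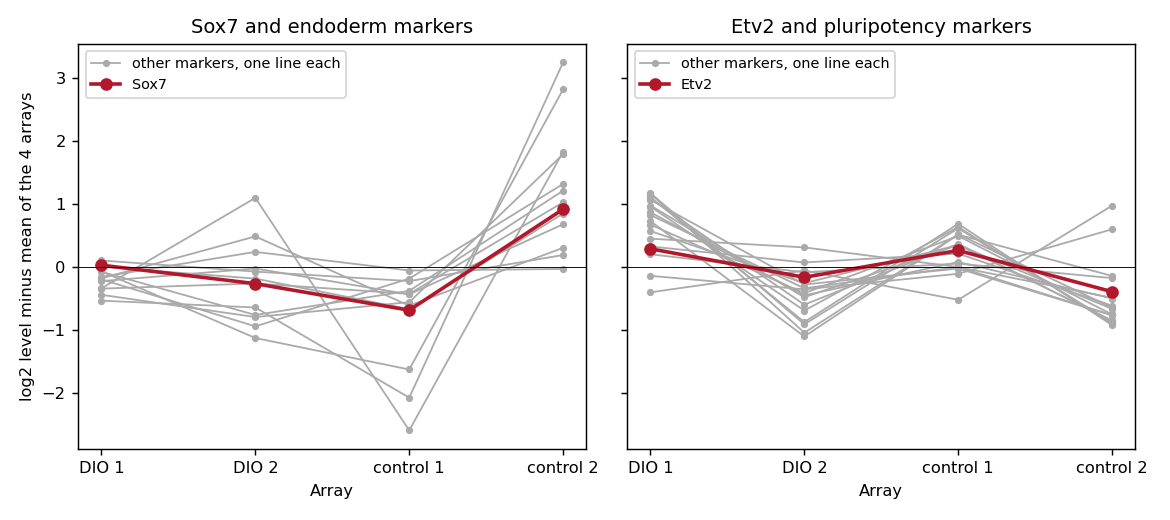
Log2 level minus the mean of the 4 arrays for Sox7 with 12 endoderm markers (left) and Etv2 with 17 pluripotency markers (right), 1 line per gene, against array. Sox7 and most endoderm markers peak in control 2, and Etv2 and most pluripotency markers are lower in the second mouse of each group.

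The larger of the 2 gaps between mice of 1 group exceeded the DIO difference for 9 of the 10 factors, Fli1 being the exception. Each gap is between single arrays and the DIO difference is between means, so a larger gap is common without any effect. The share of all genes was not counted for this or for the next count. For 6 factors the controls lay further apart than the DIO arrays. The largest gaps were between control 2 and control 1, at 1.61 for Sox7, −0.81 for Gata2 and 0.80 for Ets1. Over all genes the median gap without regard to sign was 0.14 between the DIO arrays and 0.24 between the controls. Control 2 also stood apart by epithelial and epidermal markers, which averaged 9.95 and 10.51 in DIO and 9.25 and 11.95 in control. Of these 15 markers 5 had a higher and 10 a lower DIO mean, and 0 passed. Probe sets for 18S ribosomal RNA averaged 12.30 and 11.96 in DIO and 12.60 and 12.65 in control, without overlap, as for 38.4% of all genes. The array's control probe sets for beta-actin and Gapdh overlapped between the groups, with Gapdh at its 3′ end at 13.61 and 13.46 in DIO, against 13.61 and 13.33 in control. The part of 18S RNA in these results was not tested.

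**Figure D4:**
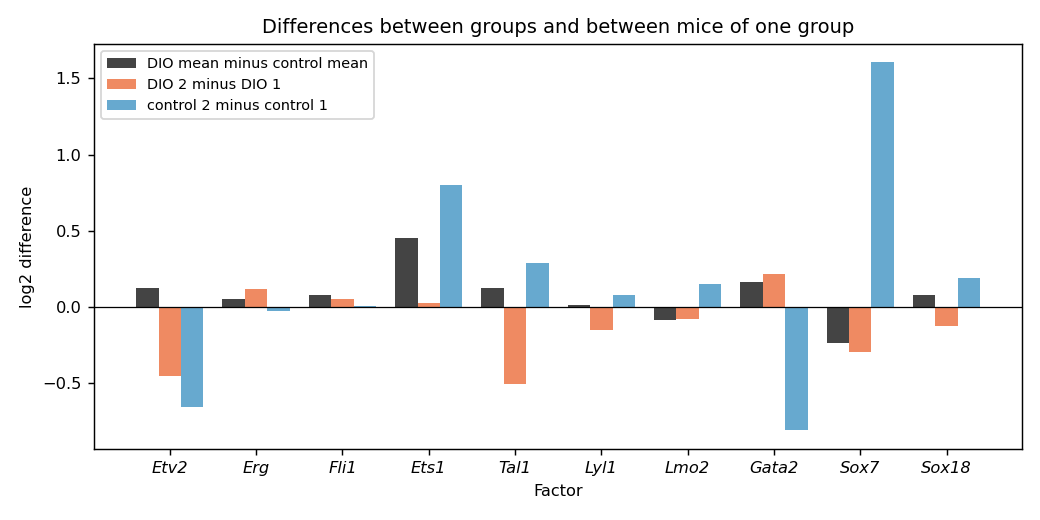
For each factor, the log2 difference of DIO mean minus control mean (dark), DIO 2 minus DIO 1 (orange) and control 2 minus control 1 (blue). The blue bars of Sox7 (1.61), Gata2 (−0.81) and Ets1 (0.80) are the tallest, and each exceeds the dark bar beside it.

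The wider families gave no factor past the adjusted threshold in limma, in 0 of 20 other ETS factors, 0 of 17 other Sox factors, 0 of 19 SCL complex partners and 0 of 5 other GATA factors. At an unadjusted p under 0.05 there was 1 gene in each of the first 3 of these lists, where 6.58% of all genes were. These counts were thus no higher than the background. Of the other ETS factors 10 had a higher and 10 a lower DIO mean, with a median of 0.01. Gabpa, a broadly used ETS activator, was at 9.64 and 9.33 in DIO, against 8.83 and 9.08 in control, which is 0.53 ± 0.18 apart and missed the threshold (limma, adjusted p = 0.728). Its other probe set was at 8.22 and 8.17 in DIO, against 8.53 and 7.93 in control, a difference of −0.03 ± 0.23 with overlapping groups. Ets2, Elf1 and Elf2 were the brightest of that list, and Elf1 was at 9.91 and 9.96 in DIO, against 10.21 and 10.30 in control.

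Tcf12, an E-protein with which Tal1 and Lyl1 pair, had a mean of 10.53 in DIO and 10.23 in control and was brighter than 87.9% of genes. Id2 and Id3, inhibitors that bind E-proteins without binding DNA, were also among the brightest. Id3 differed by 0.42 ± 0.14 (limma, adjusted p = 0.728), with 10.59 and 10.39 in DIO, against 10.14 and 10.01 in control. Id2 was at 11.28 and 11.13 in DIO, against 11.30 and 10.67 in control, a difference of 0.22 ± 0.25. Its probe sets did not agree. Another Id2 set was at 10.50 and 10.69 in DIO, against 9.75 and 9.89 in control. That set differed by 0.78 ± 0.14 without overlap (limma over all probe sets, adjusted p = 0.531). The remaining Id2 set differed by −0.07 ± 0.38. Over the 19 partners 8 had a higher and 11 a lower DIO mean, with a median of −0.12. All 5 other GATA factors had a lower DIO mean, with a median of −0.26, and no pair of groups among them was without overlap. Gata3, a trophoblast and lymphoid factor, was at 9.14 and 9.26 in DIO, against 9.70 and 9.22 in control. Gata6, an endoderm factor, was at 8.02 and 7.33 in DIO, against 7.72 and 9.31 in control, highest in control 2 as Sox7 was. Among 17 other Sox factors the DIO mean was higher in 12, and their median difference was 0.23. Sox2, a pluripotency factor, was at 11.44 and 10.27 in DIO, against 10.61 and 10.12 in control. Of 20 further vascular and blood factors, 10 had a higher and 10 a lower DIO mean, with a median of −0.002. In limma 3 of these 20 had an unadjusted p under 0.05, where 6.58% of all genes did. Runx1, which starts blood formation from endothelium, was at 6.63 and 6.57 in DIO, against 6.38 and 7.37 in control. Its further probe sets did not all agree. A dimmer set was at 6.21 and 5.82 in DIO, against 5.77 and 8.25 in control. Another had both DIO arrays higher, at 5.77 and 5.92, against 5.53 and 5.61 in control. Foxc1, a forkhead factor of vessel and mesenchyme development, was at 5.85 and 6.28 in DIO, against 6.91 and 7.67 in control. Its difference was −1.22 ± 0.33, without overlap, but it did not pass (limma, adjusted p = 0.728). The other Foxc1 probe set was at 5.15 and 5.54 in DIO, against 5.41 and 6.99 in control, with overlapping groups. Foxc2, which was dim, was higher in DIO without overlap, at 3.81 and 3.85, against 3.40 and 3.42 in control. So was Foxo1, named after its values were seen, at 9.17 and 9.02 in DIO, against 8.73 and 8.55 in control. The groups overlapped in the other Foxo1 probe sets. Neither Foxc2 nor Foxo1 passed (limma, adjusted p = 0.728 for each).

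The genes these factors are known to switch on in endothelium were mixed in brightness. Of 16 listed endothelial genes, 5 lay above the median of gene means, 5 had a higher and 11 a lower DIO mean, and 0 passed. Their median difference was −0.17, with both DIO arrays below both controls for 5 and above for 1, where 17% and 21.4% of all genes were. In the same order the counts were 1 and 7 of the 17 other Sox factors, 2 and 5 of the 12 blood markers and 1 and 5 of the 15 mesenchymal and smooth muscle markers. Cdh5, the junction cadherin, was at 8.48 and 9.34 in DIO, against 8.37 and 8.87 in control. Tie1, a receptor kinase of endothelium, was at 3.58 and 3.44 in DIO, against 3.71 and 3.73 in control and brighter than 7.53% of genes. Tek, its angiopoietin-binding relative, was at 4.87 and 4.21 in DIO, against 5.05 and 6.69 in control. Its difference was −1.33 ± 0.62 (limma, adjusted p = 0.735), and control 2 alone was high. Pecam1, an adhesion molecule of endothelium that pluripotent mouse cells also make, was at 7.20 and 6.05 in DIO, against 7.34 and 6.83 in control. Kdr, the main receptor for vascular endothelial growth factor, was at 6.27 and 6.32 in DIO, against 6.33 and 6.83 in control. In limma 1 of the 16, Flt1, had an unadjusted p under 0.05, where 6.58% of all genes did. It was at 7.26 and 6.98 in DIO, against 7.59 and 7.65 in control. Its difference was −0.50 ± 0.16 without overlap (limma, adjusted p = 0.728). Its other probe sets differed by −0.45, −0.28 and 0.09, the last with overlapping groups. Emcn, an endothelial sialomucin named after its values were seen, was at 3.47 and 3.81 in DIO, against 3.54 and 3.88 in control, brighter than 8.59% of genes. By their titles the samples are endothelial cells, while iPSC is what the cell type field says. Of the endothelial markers, Cdh5 by its brightest probe set was thus well above the median of gene means. So were Esam and Egfl7, brighter than 69.6% and 67.4% of genes, while Tie1 and Emcn were near the dimmest genes. The other Cdh5 probe set was dim and lower in DIO without overlap, at 4.23 and 4.39 in DIO, against 4.55 and 4.51 in control.

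Markers of blood cells, the other fate these factors direct, were also mostly dim. Of 12 measured blood markers 2 were above the median of gene means, 6 had a higher and 6 a lower DIO mean, and 0 passed, with a median of 0.002. Csf1r, a receptor of macrophages and trophoblast, was at 11.11 and 11.03 in DIO, against 11.47 and 11.66 in control, a difference of −0.49 ± 0.14 (limma, adjusted p = 0.728). The pan-leukocyte marker Ptprc, named after its values were seen, was at 4.11 and 3.95 in DIO, against 3.84 and 3.86 in control. Trophoblast markers, which mark a tissue that also uses Gata2, had a higher DIO mean in 9 of 12, with a median of 0.36, and 11 of 12 were above the median of gene means. Krt8, a keratin of simple epithelia, was at 14.00 and 14.07 in DIO, against 14.09 and 14.00 in control. Tfap2c, a trophoblast and germ cell factor, was at 10.53 and 11.09 in DIO, against 10.11 and 10.10 in control, and did not pass (limma, adjusted p = 0.728). Mesenchymal and smooth muscle markers had a median of −0.18 over 15 members, with 6 higher and 9 lower. Tagln, an actin-binding protein of smooth muscle, was at 9.64 and 9.44 in DIO, against 8.94 and 8.26 in control. Its difference was 0.94 ± 0.27, and it did not pass (limma, adjusted p = 0.728). Vim, the brightest of that list, went the other way with overlapping groups. It was at 10.33 and 10.02 in DIO, against 10.29 and 10.61 in control, a difference of −0.27 ± 0.20.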

How the data were processed

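Total RNA from iPSC-derived endothelial cells of 2 DIO and 2 control mice was measured on 4 arrays. The log2 values per probe set were deposited by the authors as 1 table. The sources used here do not give their background correction or normalization. The range of the values, 2.59 to 14.56, set the scale as log2. Array medians lay between 5.61 and 5.65. Of 45101 probe sets, 64 manufacturer controls were left out. In the platform annotation 34945 of the rest had 1 symbol, 932 several and 9160 none listed. No symbol changed among the 34741 that matched RefSeq by gene number.

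Each gene was taken by its brightest single-symbol probe set. The 2-sided comparison of DIO with control used lmFit and eBayes of limma 3.58.1 in R 4.3.3, adjusted by Benjamini-Hochberg over all 18193 genes, with no filter on dim genes. The fit was tested on simulated data. Nothing says how many lines a mouse gave, so p-values reflect only the spread between these arrays, some of it possibly technical. The members and lists were chosen with earlier results of these data known. All members are named, and of each list the 3 brightest and the 2 with the smallest p could be named, besides Cdh5, Kdr, Pecam1, Tek, Tie1, Sox17 and Runx1. Alternatives were quantile normalization, centring, leaving out the dimmest 40% of genes, averaging or separately testing probe sets, a trended and robust eBayes, leaving out each array, and the mouse number as a block. Promoter windows came from RefSeq (GRCm38.p6).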

Additional observations from a re-analysis of the deposited data

How the results depend on the processing

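None of the 10 factors passed the adjusted threshold under any alternative run, and over all genes 0 passed except without control 1, where 483 did, 34 higher and 449 lower. Leaving out 1 array put the number of genes past the threshold between 0 and 483, the number at an unadjusted p under 0.05 between 171 and 3689, against 1198 on all arrays (594 higher, 604 lower), and the factors without overlap between 5 and 7, against 2. With fewer arrays groups separate more easily, and 59.0% to 79.7% of all genes then did. The median difference of the factors lay between −0.02 and 0.07 in these fits, and after quantile normalization it was 0.03, as over all genes. The split at an unadjusted p under 0.05 was 772 higher and 473 lower after quantile normalization and 721 and 502 after centring. Without the dimmest 40% of genes only Gata2 and Ets1 were left, with a median of 0.31 and 1 without overlap, and 607 genes had an unadjusted p under 0.05. With each probe set tested, 4184 of 45037 did. With probe sets averaged 1 factor, Ets1, was without overlap. Lyl1 turned to −0.048 after quantile normalization. Leaving out an array turned the sign of Etv2 (−0.20 to 0.46), Erg (−0.0051 to 0.11), Tal1 (−0.13 to 0.38), Lyl1 (−0.063 to 0.089), Sox18 (−0.012 to 0.18), Gata2 (−0.24 to 0.57) and Sox7 (−1.04 to 0.57). The cause was not tested. The mouse numbers come from the titles and name separate animals. The deviations of same-numbered arrays correlated at 0.33 over genes, and with the mouse number as a block 0 genes passed and 982 had an unadjusted p under 0.05. The number of arrays, 2 per group, and the lack of detection calls limit what can be said of the dim factors.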
